A study of Rattus norvegicus with 8 samples.

Results

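The RGS (regulator of G protein signalling) genes Rgs5, Rgs4, Rgs16, Rgs2, Rgs3 and Rgs10 were followed in a pair of vessels of newborn rats, the ductus arteriosus (DA) and the aorta. The DA is the fetal vessel between the pulmonary artery and the aorta, and it closes after birth. Members were chosen by symbol through the array's platform annotation, using probe sets with 1 gene symbol and, for a gene with several, the probe set with the highest mean. This gave 5 of the 6 listed genes, each with 1 probe set, out of 14506 genes tested. The only listed probe set of Rgs10 also carries the symbol of Tial1, its neighbour on chromosome 1, so Rgs10 was not analysed here.

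The 8 Affymetrix Rat Gene 1.0 ST arrays covered 4 groups of 2 arrays: BN DA, BN aorta, F344 DA and F344 aorta. BN is Brown-Norway, an inbred strain that has served as a model of a ductus that fails to close, and F344 is the inbred Fischer344 strain. All neonates were full-term and taken 1 h after birth, and the labels name no transgene, mutation or drug. Each array received 150 ng of total RNA from pooled tissues. The labels do not say how many animals a pool held or that replicates came from separate animals, so the p-values reflect the scatter among these arrays alone, which may be technical. Values are log2 expression after RMA, and array medians lay between 6.96 and 7.05. BN DA replicate 1 stood apart: the mean of 10 markers of thymocytes and lymphocytes was 7.10 there, against 5.87 to 5.95 on the other 7 arrays. BN DA replicate 2 had the highest mean of 11 cardiac muscle markers, 7.33 against 6.52 to 6.88 on the other 7 arrays. Among these markers, Tbx20 was at 9.87 there, against 6.53 to 8.42. Results with 1 array left out are given below for several genes, and the causes of these marker values were not tested.

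RGS proteins bind active G alpha subunits and speed up the hydrolysis of their GTP, which switches off signals from G protein-coupled receptors. In arterial smooth muscle, receptors coupled to Gq and Gi raise calcium and tone, and RGS proteins set how long those signals last. In mouse and human cells, the proteins Rgs4, Rgs5 and Rgs16 are degraded by the N-degron pathway in a manner that depends on oxygen and nitric oxide. The arrays measured RNA and not protein.

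Of the 21 RGS genes in the RefSeq gene table, 10 lie on chromosome 13, among them Rgs5, Rgs4, Rgs2 and Rgs16. Rgs5 and Rgs4 are next to each other in the order of protein-coding genes, on opposite strands, Rgs16 follows Rgs8, and Rgs2 is followed by Rgs13 and Rgs1. Rgs3 lies on chromosome 5. The windows from 250 bases before to 50 after the RefSeq gene start (assembly GRCr8) are shown for the neighbours Rgs5 and Rgs4 and for Rgs2. Rgs5 was called between the vessels and Rgs4 was not, and the Rgs2 difference ran the other way without passing. The windows lie at chr13:84380827-84381126 on the plus strand for Rgs5, chr13:84475835-84476134 on the minus strand for Rgs4 and chr13:58352617-58352916 on the minus strand for Rgs2. Capitals mark matches to TATAAA and to the palindrome TATATA, to the AP-2 motif GCCNNNGGC and to TGACG, the core of the cAMP response element, which appears as its reverse complement where it lies on the other strand.
Rgs5: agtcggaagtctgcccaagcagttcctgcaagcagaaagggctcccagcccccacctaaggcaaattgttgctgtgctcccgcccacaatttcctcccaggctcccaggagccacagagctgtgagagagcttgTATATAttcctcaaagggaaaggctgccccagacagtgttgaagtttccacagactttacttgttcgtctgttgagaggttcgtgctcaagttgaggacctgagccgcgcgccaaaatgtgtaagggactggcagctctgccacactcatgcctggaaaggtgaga
Rgs4: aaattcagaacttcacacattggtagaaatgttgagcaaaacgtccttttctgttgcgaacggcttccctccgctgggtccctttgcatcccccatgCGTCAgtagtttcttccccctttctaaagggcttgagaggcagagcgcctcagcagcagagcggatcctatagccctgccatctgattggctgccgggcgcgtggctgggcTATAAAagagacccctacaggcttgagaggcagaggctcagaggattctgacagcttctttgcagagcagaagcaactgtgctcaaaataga
Rgs2: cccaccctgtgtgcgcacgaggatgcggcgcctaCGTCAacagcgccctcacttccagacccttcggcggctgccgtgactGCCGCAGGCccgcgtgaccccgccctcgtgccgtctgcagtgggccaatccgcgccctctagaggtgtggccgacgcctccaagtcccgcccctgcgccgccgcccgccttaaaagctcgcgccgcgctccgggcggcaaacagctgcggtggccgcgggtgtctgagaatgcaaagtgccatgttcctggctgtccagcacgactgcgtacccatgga

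The Rgs5 window held TATATA 116 bases before the start, a motif found in 6.15% of the 33469 promoter windows of the same length. Rgs4 held TATAAA 42 bases before its start (14.2% of windows) and TGACG 153 bases before it (21.2%). Rgs2 held TGACG 216 bases and the AP-2 motif 169 bases before its start, the second in 15.1% of windows. TATATA and the AP-2 motif read alike on both strands, and both strands were searched. The CArG box, which serum response factor binds, occurred in 1.64% of windows and in none of the 5 RGS windows, and ACGTG, the core of the hypoxia response element, occurred in 19.3% and in none of the 5. GC content was 54.3% for Rgs5, 52.7% for Rgs4 and 69.7% for Rgs2, against a median of 51.7% over all windows. A match here is a description of letters in the window and was not tested for binding.

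Rgs5 was the member that differed between the vessels. It encodes a small RGS protein acting on Gi and Gq, and in mice it is a common marker of pericytes and arterial smooth muscle. On the BN arrays its level was 13.41 and 13.11 in DA, against 12.62 and 12.22 in aorta. On the F344 arrays it was 13.37 and 13.28 in DA, against 12.79 and 12.70 in aorta. All 4 DA arrays lay above all 4 aorta arrays, and the lowest DA array was BN DA replicate 2.

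The difference was tested with limma, with p-values adjusted over all 14506 genes by the Benjamini-Hochberg method. Rgs5 averaged 13.26 ± 0.22 in BN DA and 12.42 ± 0.28 in BN aorta (SD, n = 2 each), a 1.79-fold difference (log2 0.84 ± 0.16 SE, 95% confidence interval 0.47 to 1.21, limma adjusted p = 0.0399). In F344 it averaged 13.32 ± 0.06 in DA and 12.74 ± 0.07 in aorta, a 1.49-fold difference (log2 0.58 ± 0.16 SE, interval 0.21 to 0.95, limma adjusted p = 0.0459). Averaged over both strains, Rgs5 was 1.64-fold higher in DA (log2 0.71 ± 0.12 SE, interval 0.45 to 0.97, limma adjusted p = 0.00351). In each tissue contrast 1 of the 5 RGS genes rose and 0 fell. Among all genes, 1.81% were called in BN (0.986% higher in DA and 0.820% lower), 14.0% in F344 (8.87% higher and 5.12% lower) and 16.6% over both strains (10.1% higher and 6.47% lower). In F344 and over both strains the members' share of 1 in 5 is near the background.

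The call over both strains was kept with any 1 array left out, with log2 differences of 0.61 to 0.81. The calls within a strain lay close to the threshold. In F344 the call was lost without any 1 of the 4 F344 arrays (0.53 to 0.63, limma adjusted p = 0.161 to 0.217), and in BN it was lost without any 1 array other than BN DA replicate 2 (0.64 to 1.04, limma adjusted p = 0.0653 to 0.163).

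**Figure D1:**
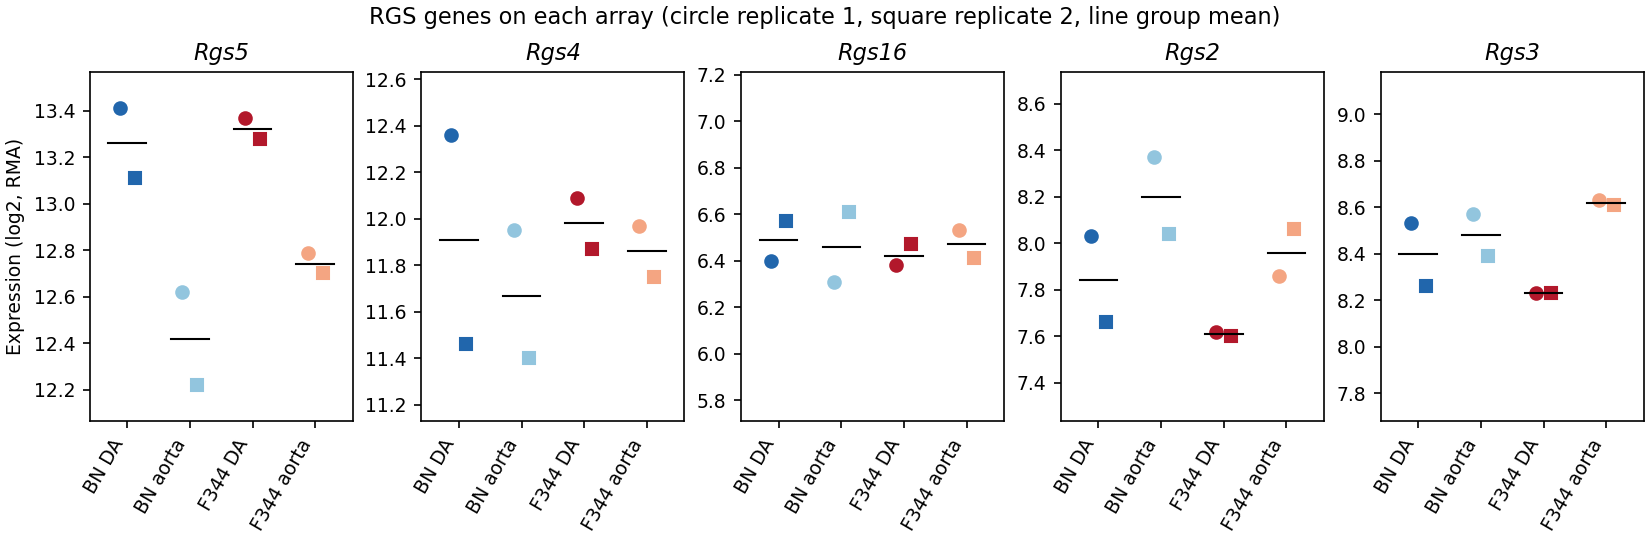
Log2 expression of the 5 RGS genes on each array, by group; circles are replicate 1, squares replicate 2 and lines group means, and every panel spans the same number of log2 units. Rgs5 lies between 13.11 and 13.41 on the DA arrays and between 12.22 and 12.79 on the aorta arrays, whereas DA and aorta overlap for Rgs4 and Rgs16.

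The plot of values by array also shows the order of the Rgs5 group means, which was F344 DA, BN DA, F344 aorta and BN aorta. The DA of the strains did not differ beyond their spread (BN minus F344 -0.06, interval -0.43 to 0.31, limma adjusted p = 0.854). Both BN aorta arrays lay below both F344 aorta arrays, but that difference did not pass (-0.33, interval -0.70 to 0.04, limma adjusted p = 0.997). The tissue difference was larger in BN by 0.26 ± 0.23 SE on the log2 scale, an interaction whose interval ran from -0.26 to 0.79 (limma adjusted p = 0.759).

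Some smooth muscle markers were also higher in DA. The 9 contractile smooth muscle markers had mean levels of 11.87 and 11.59 on the BN DA arrays, against 11.51 and 11.26 in BN aorta. They had 11.96 and 11.80 in F344 DA, against 11.43 and 11.37 in F344 aorta, so that DA lay above aorta within each strain. Limma called 0 of the 9 in BN (1.81% of all genes), with 3 at an unadjusted p under 0.05, and 3 rose in F344 (8.87% of all genes). Over both strains 4 of the 9 rose (Actg2, Des, Cnn1 and Tagln) and 0 fell, where 16.6% of all genes were called, with a median difference of 0.27, against -0.02 for all genes. Acta2, the smooth muscle actin, had differences of 0.07 in BN and 0.13 in F344, and Myh11, the smooth muscle myosin heavy chain, 0.29 and 0.25. None of these 4 values for Acta2 and Myh11 passed the limma test (adjusted p = 0.875 and 0.469 for Acta2, 0.556 and 0.378 for Myh11).

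The pericyte and mural markers did not move in 1 direction. Of 9 tested, 3 rose over both strains and 2 fell (10.1% of all genes rose and 6.47% fell), with a median difference of -0.12. In F344 also 3 rose and 2 fell, where 14.0% of all genes were called. In BN limma called 0 of the 9, with 3 at an unadjusted p under 0.05, where 1.81% of all genes were called. Those that rose were Abcc9 and Kcnj8, which encode the subunits of a vascular ATP-sensitive potassium channel, and Mcam. Those that fell were Notch3, a receptor of mural cells, and Cox4i2. Their mean level was 9.50 and 9.52 in BN DA against 9.52 and 9.52 in BN aorta, and 9.74 and 9.72 in F344 DA against 9.55 and 9.60 in F344 aorta. In bulk tissue, fewer cells of a type and less RNA per cell cannot be told apart, and the part of cell makeup in the Rgs5 difference was not tested. Tfap2b, the transcription factor gene known from the ductus, averaged 9.46 in BN DA against 6.13 in BN aorta and 9.91 in F344 DA against 6.14 in F344 aorta, as the tissue labels say.

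**Figure D2:**
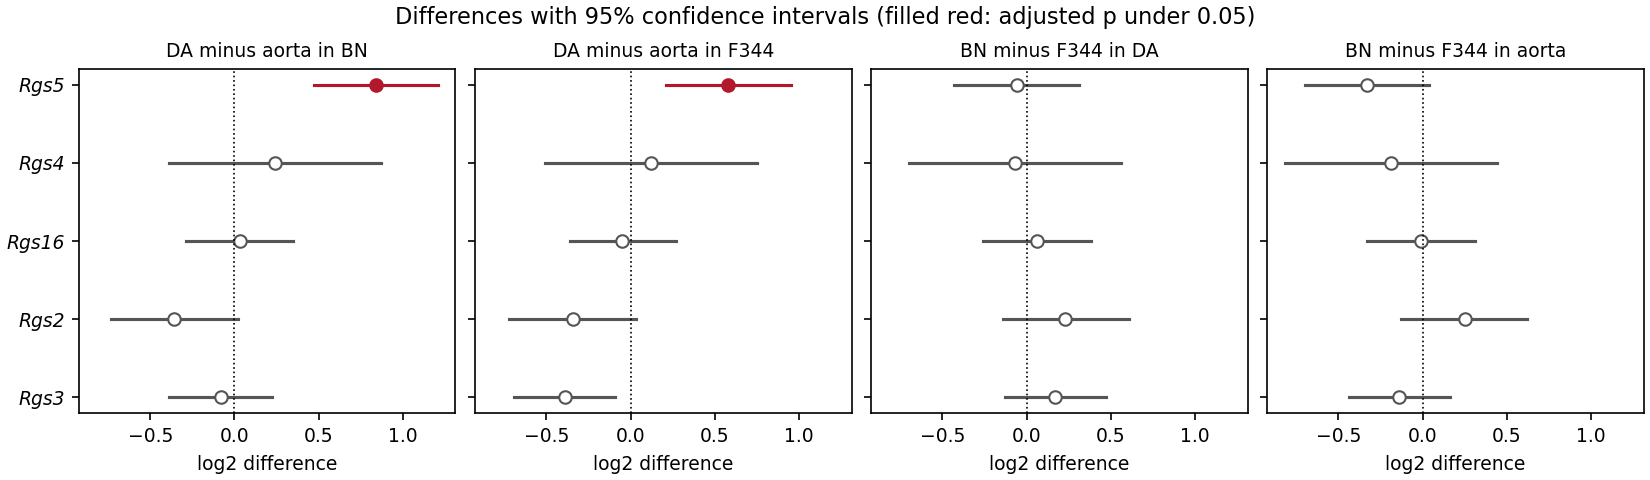
Log2 differences of the 5 RGS genes in 4 contrasts, with 95% confidence intervals; filled red points have a limma adjusted p under 0.05. Rgs5 passes in both tissue contrasts (0.84 in BN and 0.58 in F344), and no gene passes in the strain contrasts.

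Rgs4, the chromosomal neighbour of Rgs5, encodes another small RGS protein for Gi and Gq, best known from brain and heart. Its level in BN was 12.36 and 11.46 in DA, against 11.95 and 11.40 in aorta. In F344 it was 12.09 and 11.87 in DA, against 11.97 and 11.75 in aorta. The vessels overlapped in both strains, and replicate 1 was above replicate 2 in all 4 groups, as it was for Rgs5. In BN the DA minus aorta difference was 0.24 ± 0.28 SE (interval -0.39 to 0.87, limma adjusted p = 0.802), and in F344 it was 0.12 ± 0.28 SE (interval -0.51 to 0.75, limma adjusted p = 0.801). These intervals leave room for a change as large as that of Rgs5.

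The spread between replicates of Rgs4 was wide in BN. Replicates 1 and 2 were 0.90 apart in BN DA, as far as or farther than which only 2.04% of genes were, and 0.55 apart in BN aorta (3.47% of genes). In F344 they were 0.23 and 0.22 apart in DA and aorta, and 26.6% and 22.0% of genes were at least as far apart. The 7 erythroid markers were also higher on replicate 1 in every group, with means of 8.70 and 7.55 in BN DA, 8.16 and 7.47 in BN aorta, 8.25 and 7.39 in F344 DA and 7.76 and 7.12 in F344 aorta. This was not particular to erythroid markers. Mean levels of contractile smooth muscle, platelet and megakaryocyte, and adventitial fibroblast markers were likewise above those of replicate 2 throughout. The part of any of these lists in the Rgs4 values was not tested.

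Rgs16 encodes an RGS protein of Gi and Gq signalling that is induced by many stimuli in mouse and human cells. Its values were 6.40 and 6.57 in BN DA against 6.31 and 6.61 in BN aorta, and 6.38 and 6.47 in F344 DA against 6.53 and 6.41 in F344 aorta. All 8 arrays lay within 6.31 and 6.61, below the median of all gene values (7.48), and the groups overlapped. The DA minus aorta difference was 0.03 ± 0.14 SE in BN (interval -0.29 to 0.35, limma adjusted p = 0.969) and -0.05 ± 0.14 SE in F344 (interval -0.36 to 0.27, limma adjusted p = 0.857).

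The enzymes of the N-degron pathway that acts on Rgs4, Rgs5 and Rgs16 in mouse and human cells were measured beside them. Of 7 listed genes 5 were tested, and limma called 0 of the 5 in any contrast, with 0 at an unadjusted p under 0.05. Among all genes, 1.81% were called between the vessels in BN, 14.0% in F344 and 16.6% over both strains. Between the strains 0.159% to 4.53% were called, so 0 of 5 is near the background. Their differences between DA and aorta ran from -0.19 to 0.22 in BN and from -0.17 to -0.01 in F344.

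Rgs2 encodes a regulator with a preference for Gq, and mice without it have raised blood pressure. Its values ran opposite to those of Rgs5. In BN it had 8.03 and 7.66 in DA, against 8.37 and 8.04 in aorta. In F344 it had 7.62 and 7.60 in DA, against 7.86 and 8.06 in aorta. DA lay below aorta without overlap in each strain, although in BN the nearest arrays were only 8.03 and 8.04.

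These Rgs2 differences did not pass. They were -0.36 ± 0.17 SE in BN (interval -0.73 to 0.02, limma adjusted p = 0.388) and -0.34 ± 0.17 SE in F344 (interval -0.72 to 0.03, limma adjusted p = 0.204). Over both strains the difference was -0.35 ± 0.12 SE, with an unadjusted p of 0.0152 and a limma adjusted p of 0.0752. Without BN DA replicate 1 it was -0.44 and passed (limma adjusted p = 0.0194), whereas repeated quantile normalization, cyclic loess and centring on brighter genes brought it to -0.24, -0.23 and -0.22 (limma adjusted p = 0.15 to 0.202) and the F344 difference to between -0.18 and -0.14. The order of the group means was BN aorta (8.20 ± 0.23), F344 aorta (7.96 ± 0.14), BN DA (7.84 ± 0.26) and F344 DA (7.61 ± 0.01, SD, n = 2 each), and neighbours in that order lay within 0.25 of each other.

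Macrophage markers had the same direction as Rgs2. The 13 markers had mean levels of 7.55 and 7.86 in BN DA against 8.12 and 8.06 in BN aorta, and of 7.36 and 7.25 in F344 DA against 7.93 and 7.65 in F344 aorta. Limma called 0 of the 13 in BN (1.81% of all genes), with 4 at an unadjusted p under 0.05. In F344 4 of the 13 fell and 0 rose, where 5.12% of all genes fell. Over both strains 5 of the 13 fell and 0 rose, where 6.47% of all genes fell, with a median difference of -0.34. Their part in the Rgs2 values was not tested.

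Rgs3 encodes a larger RGS protein with several isoforms, which acts on Gi and Gq. Its values were 8.53 and 8.26 in BN DA against 8.57 and 8.39 in BN aorta, and 8.23 and 8.23 in F344 DA against 8.63 and 8.61 in F344 aorta. The vessels were apart in F344, where the replicates of each nearly coincided, and they overlapped in BN. In F344 the difference was -0.39 ± 0.13 SE (interval -0.69 to -0.09, limma adjusted p = 0.0866), and in BN it was -0.08 ± 0.13 SE (interval -0.39 to 0.22, limma adjusted p = 0.875). The interaction of 0.31 ± 0.19 SE did not pass (limma adjusted p = 0.648), so the strains are not shown to differ.

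The Rgs3 difference in F344 passed without either BN DA array (limma adjusted p = 0.0451 each) and with only the 4 F344 arrays (limma adjusted p = 0.0313). It was smaller, at -0.18 to -0.19, after repeated quantile normalization, cyclic loess or centring on brighter genes (limma adjusted p = 0.369 to 0.385). Over both strains it was -0.24 ± 0.09 SE (limma adjusted p = 0.125), with -0.31 without BN DA replicate 1, the array with high lymphocyte markers (limma adjusted p = 0.0446), and -0.11 under each of those 3 normalizations (limma adjusted p = 0.437 to 0.459). The order of its group means was F344 aorta (8.62), BN aorta (8.48), BN DA (8.40) and F344 DA (8.23).

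The 11 blood endothelial markers were, like Rgs3, lowest in F344 DA, with means of 9.04 and 8.77 in BN DA against 8.82 and 8.87 in BN aorta, and of 8.46 and 8.41 in F344 DA against 9.0 and 8.88 in F344 aorta. In F344 5 of the 11 fell and 0 rose (median difference -0.44), where 5.12% of all genes fell. In BN limma called 0, with 1 at an unadjusted p under 0.05 (median 0.09), where 1.81% of all genes were called. Their part in the Rgs3 values was not tested.

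**Figure D3:**
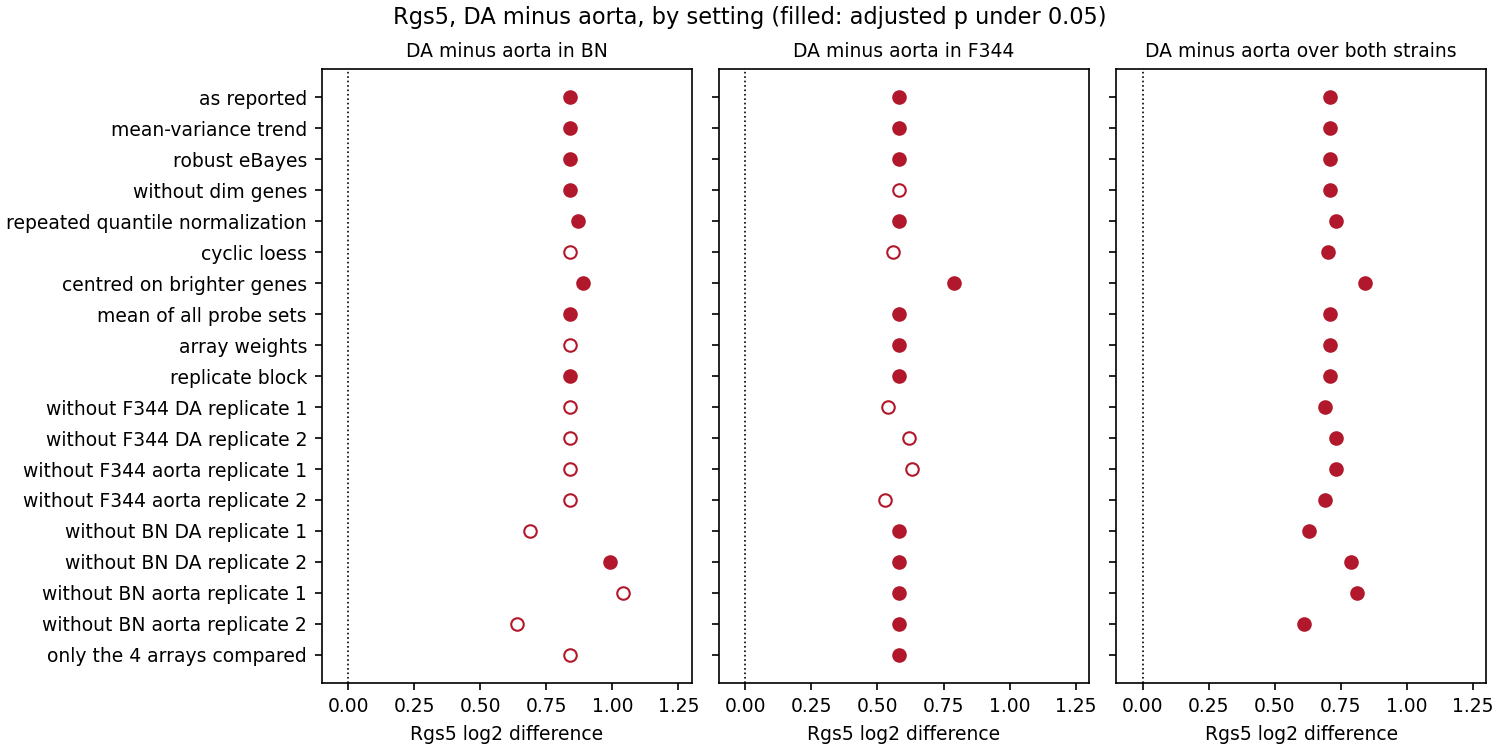
Log2 difference of Rgs5 between DA and aorta under each processing setting, in BN, in F344 and over both strains; filled points have a limma adjusted p under 0.05. The difference stays between 0.61 and 0.84 over both strains and is filled in every row there, whereas the single-strain points are filled under only some settings.

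Between the strains, none of the 5 RGS genes passed the test. For BN minus F344 limma called 0 of 5 in DA, where 4.53% of all genes were called, 0 of 5 in aorta (0.159% of all genes) and 0 of 5 over both tissues (2.65%), and 0 of 5 reached an unadjusted p under 0.05 in any of them. In DA the differences ran from -0.07 for Rgs4 to 0.23 for Rgs2, and in aorta from -0.33 for Rgs5 to 0.25 for Rgs2. The largest over both tissues was that of Rgs2, at 0.24 ± 0.12 SE (interval -0.03 to 0.51, limma adjusted p = 0.315). The interaction of strain and tissue called 0 of 5 and 0% of all genes, while 1403 of the 14506 genes and 0 of the 5 had an unadjusted p under 0.05.

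Across the 8 arrays, the members' profiles differed. Pearson's r was 0.76 between Rgs2 and Rgs3, 0.62 between Rgs4 and Rgs5, -0.60 between Rgs2 and Rgs5 and -0.71 between Rgs4 and Rgs16. These are descriptions over 8 arrays that share tissue, strain and array, and no test was made. For each member, the 3 named genes with the highest r among those brighter than the median gene were listed. For Rgs5 these were Rbpms (0.985), an RNA-binding protein gene, Atp2b4 (0.979), a plasma membrane calcium pump gene, and Lpp (0.969), a gene of focal adhesions.

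The nearest profiles differed between members. For Rgs4 they were Phpt1 (0.988), the ribosomal protein gene Rps15a (0.979) and the pyruvate kinase gene Pkm (0.978). For Rgs3 they were Gja5 (0.997), which encodes a gap junction connexin, the natriuretic peptide receptor gene Npr1 (0.983) and Sec22a (0.980). For Rgs2 they were Pknox1 (0.976), Kansl2 (0.969) and Kif13b (0.963), and for Rgs16 Slc29a2 (0.952), Erp44 (0.952) and Idh3a (0.911).

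Of the 15 other genes named Rgs, 12 were tested, and few were called. In F344 1 of 12 fell and 0 rose (14.0% of all genes called), and their median difference was -0.08, against -0.04 for all genes. In BN limma called 0 of 12 (1.81% of all genes), with 1 at an unadjusted p under 0.05. The median there was -0.08, against 0 for all genes. The gene that fell was Rgs7, a neuronal regulator of Gi and Go that works with the G beta subunit Gnb5. Rgs7 had 5.59 and 6.30 in BN DA against 6.08 and 6.28 in BN aorta, and 5.76 and 5.73 in F344 DA against 6.73 and 7.06 in F344 aorta.

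Rgs7 thus overlapped between vessels in BN and was 2.22-fold lower in DA in F344 (-1.15 ± 0.22 SE, limma adjusted p = 0.00908). Its interaction of strain and tissue was 0.91 ± 0.31 SE, with an unadjusted p of 0.0158 and a limma adjusted p of 0.429. Over both strains Rgs7 fell by 0.69 ± 0.15 SE (limma adjusted p = 0.0157). The F344 call was lost without F344 DA replicate 1, F344 DA replicate 2 or F344 aorta replicate 2 (limma adjusted p = 0.0537 to 0.0736), and the call over both strains without any of these or BN aorta replicate 2 (0.0506 to 0.0648).

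Between the strains limma called 1 of the 12 over both tissues (2.65% of all genes). It called 0 in DA (4.53%) and 0 in aorta (0.159%). The gene called was Rgs17, a regulator of Gi and Gz. It had 6.32 and 6.77 in BN DA against 6.19 and 6.16 in F344 DA, and 6.85 and 6.68 in BN aorta against 6.13 and 5.93 in F344 aorta. BN lay above F344 in both vessels, 1.47-fold over both (0.55 ± 0.12 SE, limma adjusted p = 0.0439). The call was lost without any 1 of the 4 F344 arrays or the BN aorta arrays (0.50 to 0.60, limma adjusted p = 0.0883 to 0.19), and with centring on brighter genes (0.48, 0.0992).

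**Figure D4:**
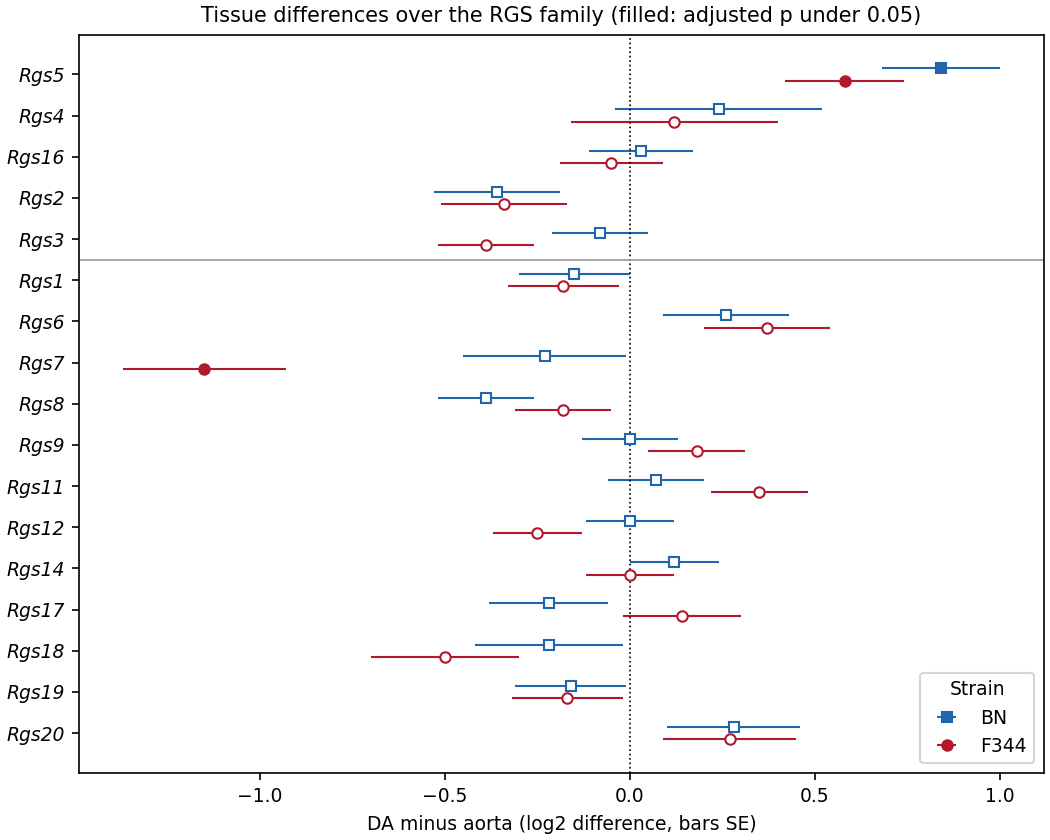
DA minus aorta log2 differences, with SE, of the 5 listed RGS genes (above the line) and 12 other RGS family genes (below it), in BN (squares) and F344 (circles); filled symbols have a limma adjusted p under 0.05. Rgs5 is filled in both strains and Rgs7 in F344, where it lies at -1.15.

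Beyond the Rgs symbols, 11 genes of proteins with an RGS domain or of RGS-binding proteins were tested. Over both strains 2 fell and 0 rose, near the 16.6% of all genes called (6.47% fell). Their median difference was -0.18, against -0.02 for all genes. Rgs7bp, which anchors Rgs7 at the membrane, was 1.37-fold lower in DA (-0.46 ± 0.13 SE, limma adjusted p = 0.0383), with values of 7.99 and 8.55 in BN DA against 8.78 and 8.85 in BN aorta, and 8.50 and 8.26 in F344 DA against 8.73 and 8.78 in F344 aorta. Arhgef1, whose RGS-like domain binds G alpha 13, was 1.26-fold lower (-0.33 ± 0.08 SE, limma adjusted p = 0.0218). DA lay below aorta on every array for both genes. Leaving out 1 array ended the call of Rgs7bp for 6 of the 8 arrays, all but the BN DA arrays (limma adjusted p = 0.0615 to 0.147), and that of Arhgef1 for 5, the F344 arrays and BN aorta replicate 1 (0.0638 to 0.1). Repeated quantile normalization, cyclic loess and centring on brighter genes also ended both calls, with Arhgef1 at -0.20 to -0.21 (limma adjusted p = 0.107 to 0.149) and Rgs7bp at -0.33 (limma adjusted p = 0.15 to 0.168).

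The G alpha subunits, on which RGS proteins act, held both higher and lower members. Of 13 tested, 1 rose and 0 fell in BN, 1 rose and 2 fell in F344, and 1 rose and 3 fell over both strains, with a median difference of -0.20. The background shares called were 1.81% in BN, 14.0% in F344 and 16.6% over both strains. Gnao1, the Go alpha subunit and a substrate of several RGS proteins, had 8.65 and 8.69 in BN DA against 7.34 and 7.60 in BN aorta, and 8.37 and 8.30 in F344 DA against 7.28 and 7.37 in F344 aorta. It was 2.3-fold higher in DA in BN (1.2 ± 0.13 SE, limma adjusted p = 0.00393) and 2.02-fold in F344 (1.01 ± 0.13 SE, limma adjusted p = 0.0018). The BN call was lost without BN aorta replicate 1 (1.07, limma adjusted p = 0.0596) and with only the 4 BN arrays (0.0668), while over both strains Gnao1 passed under every alternative tried (2.16-fold, limma adjusted p = 0.00024).

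Gnai1, a Gi alpha subunit, ran the other way. It had 7.66 and 8.12 in BN DA against 8.16 and 8.21 in BN aorta, and 7.58 and 7.47 in F344 DA against 8.46 and 8.66 in F344 aorta. All DA arrays lay below all aorta arrays, and Gnai1 fell by 0.66 ± 0.12 SE over both strains (limma adjusted p = 0.00501). Within strains its difference was -0.29 ± 0.16 SE in BN, which did not pass (limma adjusted p = 0.505), and -1.03 ± 0.16 SE in F344, which did (limma adjusted p = 0.00413).

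Gnal, the olfactory relative of Gs alpha, likewise passed in F344 and not in BN. Its difference was -0.19 ± 0.14 SE in BN, where the arrays met at 7.11 (limma adjusted p = 0.645), and -0.92 ± 0.14 SE in F344 (limma adjusted p = 0.00364). Over both strains it fell by 0.56 ± 0.10 SE (limma adjusted p = 0.00555). The interactions were 0.73 ± 0.20 SE for Gnal and 0.74 ± 0.23 SE for Gnai1, and neither passed (limma adjusted p = 0.322 and 0.382). Gna15, a Gq class subunit, fell by 0.41 ± 0.11 SE over both strains (limma adjusted p = 0.036), and this call was lost with centring on brighter genes (-0.28, limma adjusted p = 0.164). In DA Gnal was higher in BN than in F344 (6.82 and 7.11 against 6.39 and 6.30, 0.62 ± 0.14 SE, limma adjusted p = 0.0419).

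G beta and gamma subunits and the kinases and arrestins that switch off receptors were mostly without calls. Of 13 G beta and gamma genes limma called 0 in BN (1.81% of all genes) and 0 in F344 (14.0%), with 1 at an unadjusted p under 0.05 in each. Over both strains, where 16.6% of all genes were called, Gng3 rose by 0.34 ± 0.09 SE (limma adjusted p = 0.0293). Of 7 kinase and arrestin genes 0 were called between DA and aorta over both strains, with 1 at an unadjusted p under 0.05. Grk4, a receptor kinase, was higher in BN DA than in F344 DA (7.98 and 7.87 against 7.17 and 7.41, 0.64 ± 0.13 SE, limma adjusted p = 0.0334). It was the 1 of the 7 called between the strains in DA, where 4.53% of all genes were called. The call was lost with cyclic loess, centring on brighter genes, array weights or only the 4 DA arrays (limma adjusted p = 0.0553 to 0.106).

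Of 25 receptors coupled to constriction or to Gi, 4 rose and 6 fell in DA over both strains (10.1% of all genes rose and 6.47% fell), with a median difference of -0.10. In BN 1 rose and 3 fell, against 1.81% of all genes called, and in F344 3 rose and 3 fell, against 14.0%. Several of these single-strain calls depended on the setting, as given below. Chrm3, the muscarinic M3 receptor, which couples to Gq, had 8.50 and 7.79 in BN DA against 6.49 and 7.07 in BN aorta, and 8.04 and 7.89 in F344 DA against 6.51 and 6.52 in F344 aorta. It was 2.65-fold higher in DA over both strains (1.40 ± 0.17 SE, limma adjusted p = 0.000986). Chrm2, the muscarinic M2 receptor, which couples to Gi, rose by 0.61 ± 0.13 SE (limma adjusted p = 0.0133). The receptor genes Agtr1a and S1pr1 also rose over both strains (0.35 and 0.41), and leaving out 1 array could end either call.

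Among receptors that fell, Avpr1a, the Gq-coupled vasopressin V1a receptor, had 7.56 and 7.50 in BN DA against 9.52 and 9.02 in BN aorta, and 7.50 and 7.32 in F344 DA against 9.17 and 9.02 in F344 aorta. It was 3.28-fold lower in DA over both strains (-1.71 ± 0.12 SE, limma adjusted p = 0.000134). Ptger3, the Gi-coupled prostaglandin E receptor EP3, fell by 1.21 ± 0.15 SE (limma adjusted p = 0.000981), and Adra2a, the Gi-coupled alpha 2A adrenoceptor, by 0.68 ± 0.09 SE (limma adjusted p = 0.00113). In F344 the calls of both were lost with repeated quantile normalization, cyclic loess or centring on brighter genes (limma adjusted p = 0.0681 to 0.0945). In BN, Ptger3, Adra2a and Chrm3 lost their calls with only the 4 BN arrays (limma adjusted p = 0.0913 to 0.151). Leaving out 1 array could also end these single-strain calls, and those of Agtr1a and Chrm2 in F344. Adra2a also had lower values in BN than in F344 in DA (7.61 and 7.49 against 8.17 and 8.07, -0.57 ± 0.12 SE, limma adjusted p = 0.0334). The serotonin receptor gene Htr1b was higher in BN over both tissues (0.69 ± 0.10 SE, limma adjusted p = 0.0138). Over both strains Htr1b, Htr2a and S1pr2 also fell in DA (-0.43, -0.39 and -0.38). Repeated quantile normalization, cyclic loess and centring on brighter genes ended each of these calls (limma adjusted p = 0.065 to 0.229).

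Downstream of the G proteins, 17 effector genes were tested, among them those of phospholipase C, protein kinase C and myosin regulation, and 3 rose and 1 fell over both strains, near the 16.6% of all genes called, with a median difference of 0.04. In BN limma called 0 (1.81% of all genes), with 4 at an unadjusted p under 0.05. In F344 0 rose and 2 fell (Prkca and Prkcd, both protein kinase C genes), near the 14.0% of all genes. Both F344 calls were lost without any 1 of the 4 F344 arrays (limma adjusted p = 0.0526 to 0.245) and under the 3 other normalizations, which gave -0.36 to -0.40 for Prkca and -0.29 to -0.34 for Prkcd. Ppp1r12a, the targeting subunit of myosin phosphatase, had 11.23 and 10.79 in BN DA against 10.46 and 10.19 in BN aorta, and 10.99 and 10.83 in F344 DA against 10.42 and 10.41 in F344 aorta. It was 1.5-fold higher in DA over both strains (0.59 ± 0.12 SE, limma adjusted p = 0.00932). Plcb4, a phospholipase C gene, rose by 0.35 ± 0.10 SE (limma adjusted p = 0.0467) and Mylk, the myosin light chain kinase gene, by 0.33 ± 0.09 SE (limma adjusted p = 0.0453), whereas Prkcd fell by 0.43 ± 0.10 SE (limma adjusted p = 0.0167).

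**Figure D5:**
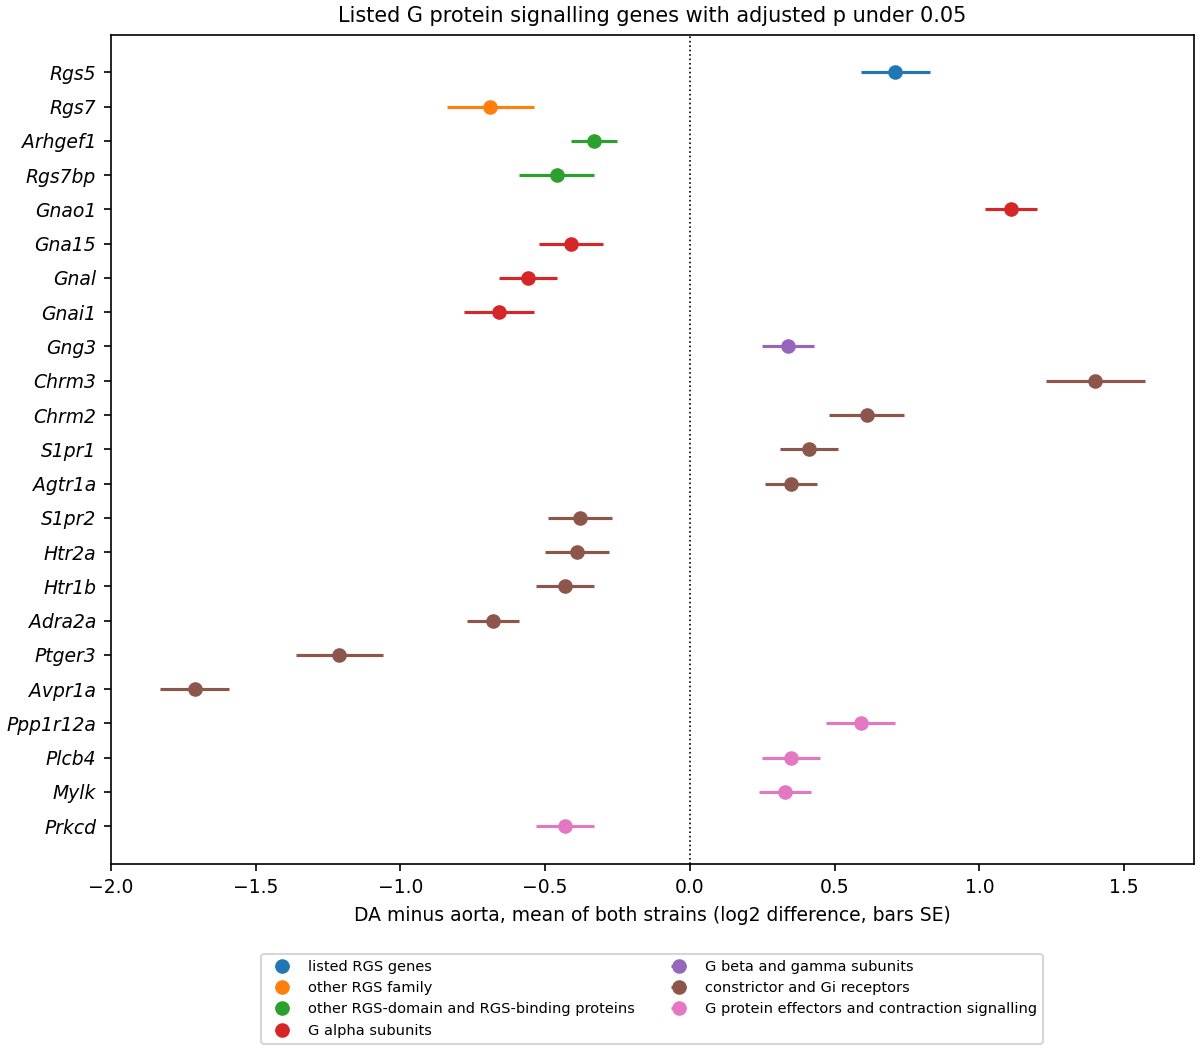
DA minus aorta log2 differences averaged over both strains, with SE, for all genes of 7 G protein signalling lists with a limma adjusted p under 0.05, coloured by list. Rgs5 stands at 0.71, the largest positive value is Chrm3 at 1.40 and the largest negative value is Avpr1a at -1.71.

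Over both strains, Rgs5, Gnao1, Gnai1, Gnal, Chrm3, Avpr1a, Ptger3, Adra2a and Ppp1r12a kept their calls with any 1 array left out. Leaving out 1 array ended the call of Chrm2 for 3 arrays, F344 DA replicate 2, F344 aorta replicate 1 and BN aorta replicate 1 (0.50 to 0.54, limma adjusted p = 0.0525 to 0.0625). It ended the calls of Prkcd over both strains for 4 arrays, Gna15 for 5, Gng3 for 6, Plcb4 for 7 and Mylk for all 8. The strain calls ended for 7 arrays with Gnal, 5 with Grk4, 7 with Adra2a in DA and, for Htr1b, with each of the 4 F344 arrays.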

How the data were processed

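RNA was measured on 8 arrays, 2 for each of BN DA, BN aorta, F344 DA and F344 aorta. The deposited table holds log2 values, which the authors made with RMA (background correction, normalization between arrays and summary per probe set) per the submitters' processing notes. That the scale is log2 was taken from the range of the values, 1.07 to 14.2. No RMA version or genome build of the probes is stated in these sources. RMA pulls the array distributions together, so differences are relative to the bulk of genes.

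Of 29215 probe sets, 15310 carried 1 symbol in the platform annotation of 2016, 323 several, and 13582 were not listed there. RefSeq (GRCr8) held 15279 of the first. For 527 genes with several probe sets the brightest was kept, leaving 14506 genes. Promoter windows come from RefSeq, and all 5 members matched by symbol.

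A model with 1 mean per group was fitted to all 8 arrays with limma 3.58.1 (R 4.3.3; 4 residual and 5.2 prior degrees of freedom). Two-sided tests were used, and a call means a Benjamini-Hochberg adjusted p under 0.05 over all genes tested. Errors of differences are model SEs. Data were simulated for 14506 genes from the group means, with the F344 DA means set to those of F344 aorta. Each gene had 1 moderated spread, estimated over all 4 groups. Changes of 1 and of 2 log2 units were then added in F344 DA, to 100 genes each. For DA minus aorta in F344 the fit recovered 96% of changes of 1 log2 unit and 100% of changes of 2 units. Of its calls, 5.8% were of unchanged genes.

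All members were named in every contrast, with up to 4 called genes per list and contrast by the size of the difference, and the 3 most similar genes per member, passing over predicted and chemosensory genes. The members and lists were chosen with earlier results of these data known. The list of proteins with an RGS domain also holds 2 RGS-binding proteins. The number of arrays limits the precision. Alternatives were other moderation, normalization, centring, filtering and probe set rules, array weights, a replicate block, fits of only the arrays compared, and each array left out.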

Additional observations from a re-analysis of the deposited data

How the results depend on the processing

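Of the 5 RGS genes 1, Rgs5, was called in each tissue contrast. In F344 the count was 0 without dim genes (Rgs5 0.58, limma adjusted p = 0.0567) and 0 with cyclic loess (0.56, 0.0857), and 2, Rgs3 and Rgs5, with array weights, with the replicate block and with only the 4 arrays compared. With 1 array left out it ranged from 0 (without any F344 array) to 2 (without either BN DA array). In BN the count was 0 with cyclic loess (0.84, 0.0541), 0 with array weights (0.84, 0.0822) and 0 with only the 4 arrays compared (0.84, 0.189), and from 0 to 1 with 1 array left out. Over both strains it ranged from 1 to 3 with 1 array left out, 3 (Rgs2, Rgs3 and Rgs5) without BN DA replicate 1. Over all genes, the SD of the difference between replicates was 0.349 in BN DA and 0.258 in BN aorta. It was 0.223 in F344 DA and 0.196 in F344 aorta. The reported fit gave each gene 1 spread for all groups. With only the 4 arrays compared, Rgs5 had a limma adjusted p of 0.00815 in F344. Some settings also use fewer samples or genes, and the causes of these changes were not tested. In the strain contrasts and the interaction the count stayed 0 under every alternative run.

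Over 608 member differences and alternatives, 565 kept their sign before rounding, among which 16 lost and 7 gained a call, 43 changed sign without a call on either side, and 0 reversed a call. Of 46 called results of the other listed genes, 594 of 792 values kept the call, 198 lost it and 0 reversed. Centring on brighter genes moved the median of all genes to 0.16 in F344, and Rgs5 to 0.79 there. The number of all genes called ran from 16 to 600 in BN (262 as reported), from 646 to 3710 in F344 (2028), from 1081 to 3218 over both strains (2403), from 13 to 1583 for the strains in DA (657), from 0 to 69 in aorta (23), from 55 to 1015 over both tissues (384) and from 0 to 56 for the interaction (0). Correlations of same-numbered deviations between groups were all positive, between 0.03 and 0.52, the highest for BN DA with BN aorta. The reported fit did not take the numbers as pairing, and the source of these correlations was not tested. With the replicate block 2875 genes were called in F344 and 548 in BN, and Rgs5 had limma adjusted p-values of 0.0135 and 0.0131 there.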
